A study of Mus musculus with 12 samples.

Results

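The genes described here are 10 ligands, receptors, junction proteins and inhibitors of blood vessel growth, chosen by name and found as 10 of the 24197 gene rows of a table of E0771 tumor RNA. They are VEGFA, VEGFC and ANGPT2 (ligands), KDR, FLT1, FLT4 and TEK (receptors), PECAM1 and CDH5 (endothelial junction proteins) and THBS1 (an inhibitor). E0771 is a mouse mammary carcinoma line, grown here in a mammary fat pad (the fourth) in C57/BL6N females and treated with cyclophosphamide (CPA), an alkylating drug activated in the liver. CPA was given intraperitoneally at 130 mg/kg per the labels (other material of the study gives another dose), and vehicle mice received PBS. The groups were CPA day 1, day 2, day 3 and day 6 after 1 injection on day 0, CPA day 12 after injections on day 0 and day 6, and vehicle. Mice were 9 to 10 weeks old in the vehicle, day 1, day 2 and day 3 groups, 11 weeks old on day 6 and 12 weeks old on day 12, so later days and greater age cannot be told apart. The question was how tumor RNA changed over the time course of CPA.

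Each of the 6 groups had 2 libraries of polyA RNA, each made from pooled tumor RNA. The deposited table holds 1 value per gene and group, in FPKM (fragment counts scaled to gene length and library size, so that genes of different length can be compared), made by the authors from both libraries. These group values give no spread between libraries and no standard error, the p-values of the authors' own comparisons in the table were not used, and every difference below is a description of group values without a test. For 1 of the 2 day 1 libraries the labels contradict each other (CPA by its title, vehicle by its treatment field), and the table counts it as CPA. The table holds no depth per library, and the average depth that the study states was not used here. The steps between the lowest values showed that the deeper library of a group had 1.01 to 1.14 times the depth of the other in 5 groups and 1.91 times on day 12.

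New vessels grow when VEGFA, made by many cells under low oxygen, binds KDR on endothelial cells and starts their division, migration and sprouting. FLT1 binds VEGFA tightly and in its soluble form takes it away from KDR, while VEGFC acts through FLT4, best known from lymphatic vessels. ANGPT2 is released by endothelial cells and loosens vessels by opposing TEK signaling, CDH5 and PECAM1 hold endothelial cells together, and THBS1 is a matrix protein that restrains endothelial growth through the receptors CD36 and CD47. In tumors these genes are followed as measures of vessel supply and as drug targets. In bulk tumor RNA, fewer cells of a type and less RNA per cell cannot be told apart.

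None of the 10 genes was past 2-fold of vehicle through day 6, and 4 of them were more than 2-fold higher on day 12. In the classes of similar level, 11.6% of all genes (for THBS1) and 39.1% (for VEGFC, TEK and FLT1) were also more than 2-fold higher on that day. THBS1 was at 22.3 FPKM on day 12, against 3.50 FPKM in vehicle, a ratio of 6.38. VEGFC, TEK and FLT1 were 4.20, 3.03 and 2.20 times their vehicle FPKM on day 12, all from levels under 1 FPKM in vehicle. VEGFA was 1.07 times vehicle on day 12, after 0.725, 0.799 and 0.75 times vehicle on days 2, 3 and 6. The plot of levels by group shows these courses side by side.

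**Figure D1:**
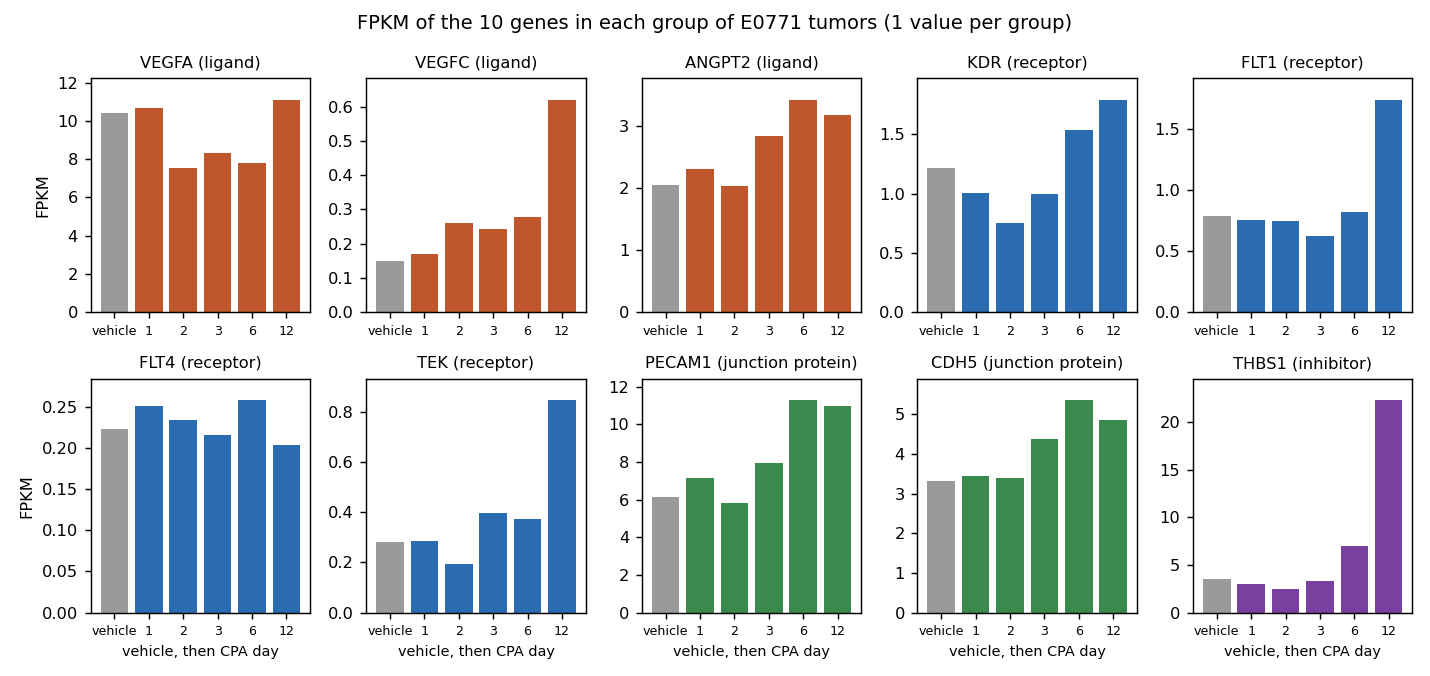
FPKM of each of the 10 genes in vehicle (grey) and on CPA days 1, 2, 3, 6 and 12 (colored by role), 1 value per group made from 2 libraries, so without error bars, each panel on its own axis from 0. THBS1 stands at 22.3 FPKM on day 12, and VEGFA stays between 7.55 and 11.1 FPKM in all 6 groups.

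The upstream sequences of these genes are shown because VEGFC, TEK and FLT1 were past 2-fold higher on day 12 while KDR and VEGFA were not. That split depends on the threshold and on the small value added before taking logs, as given below. RefSeq start sites (GRCm38.p6, another build than that of the expression table) gave an entry for 6 of the 10 genes, and THBS1, ANGPT2, PECAM1 and CDH5 had none. The 250 bases before the start site are given for 5 of them, all but FLT4, on the coding strand. VEGFA has a pair of RefSeq start sites, and only the upstream one is shown. Capitals mark GGAA, the core of the sites bound by ETS factors, which are common in endothelial promoters, and ACGTG or GCGTG, the core of hypoxia response elements, searched on both strands (TTCC, CACGT and CACGC on the other strand).
Vegfc, chr8:54077282-54077531, plus strand: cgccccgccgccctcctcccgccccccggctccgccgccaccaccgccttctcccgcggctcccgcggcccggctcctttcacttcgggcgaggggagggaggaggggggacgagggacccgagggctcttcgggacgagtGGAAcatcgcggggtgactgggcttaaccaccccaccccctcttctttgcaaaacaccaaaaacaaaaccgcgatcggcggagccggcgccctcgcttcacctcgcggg
Tek, chr4:94739039-94739288, plus strand: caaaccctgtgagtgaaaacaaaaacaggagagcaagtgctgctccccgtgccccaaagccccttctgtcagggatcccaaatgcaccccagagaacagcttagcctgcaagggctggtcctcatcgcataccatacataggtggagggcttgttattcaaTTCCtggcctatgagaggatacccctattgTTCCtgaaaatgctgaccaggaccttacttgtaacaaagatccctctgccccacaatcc
Flt1, chr5:147726012-147726261, minus strand: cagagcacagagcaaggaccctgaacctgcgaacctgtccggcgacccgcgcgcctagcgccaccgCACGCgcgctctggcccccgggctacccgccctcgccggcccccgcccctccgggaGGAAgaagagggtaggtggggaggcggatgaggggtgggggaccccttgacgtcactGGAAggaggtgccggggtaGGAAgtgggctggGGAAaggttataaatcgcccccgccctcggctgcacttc
Kdr, chr5:75978456-75978705, minus strand: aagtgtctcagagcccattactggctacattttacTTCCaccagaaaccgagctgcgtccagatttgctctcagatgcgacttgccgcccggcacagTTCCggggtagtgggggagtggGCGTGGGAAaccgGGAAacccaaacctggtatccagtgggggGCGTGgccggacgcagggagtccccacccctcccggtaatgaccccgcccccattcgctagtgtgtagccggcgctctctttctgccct
Vegfa, chr17:46032378-46032627, minus strand: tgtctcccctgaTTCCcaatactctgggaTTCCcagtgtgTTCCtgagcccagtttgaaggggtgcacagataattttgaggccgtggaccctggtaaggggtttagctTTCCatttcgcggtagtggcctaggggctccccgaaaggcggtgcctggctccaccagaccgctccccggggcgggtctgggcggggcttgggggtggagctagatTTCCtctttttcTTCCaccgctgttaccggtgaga

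These windows held 1 GGAA core for VEGFC, 2 for TEK, 4 each for FLT1 and KDR and 6 for the VEGFA window shown. The window of FLT4, which did not pass 2-fold either and is not shown, held 2 GGAA cores. Of all 32851 RefSeq windows of this length 93.4% held at least 1, with a median of 3, and 33.4% held at least 4. The hypoxia core was found 2 times for KDR and 1 time for FLT1, and in 38.6% of all windows. It was not among the letters of the VEGFC, TEK and VEGFA windows shown, nor of the FLT4 window. The window of the other VEGFA start site (chr17:46025164-46025413, minus strand) held it 2 times, with 2 GGAA cores. That window lies inside the longer VEGFA location, and the letters around both hypoxia matches read as codons of VEGFA. These matches are thus not sequence upstream of the gene as a whole. In none of these windows did a match overlap one of the other kind. VEGFC, TEK and FLT1 thus had from 1 to 4 GGAA cores, while THBS1, also past 2-fold on day 12, had no entry. The matches are letters only, with no measure of binding.

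Among the ligands, VEGFA (mm9 chr17:46153942-46162112 and, as the longer of 2 locations listed, chr17:46153942-46169326) was the most abundant. Its level was 10.4 FPKM in vehicle and 10.7, 7.55, 8.31, 7.80 and 11.1 FPKM on days 1, 2, 3, 6 and 12. The lowest values were those of days 2, 3 and 6, and days 1 and 12 lay near vehicle. On the scale of log2(FPKM + 0.1), on which all differences below are given, VEGFA differed from vehicle by 0.04, -0.46, -0.32, -0.41 and 0.10 on the 5 days. Only 4.55% of the 10648 genes with a mean of 1 FPKM or more over the 6 groups lay lower than VEGFA on day 2, and 7.79% and 5.28% on days 3 and 6.

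VEGFC (mm9 chr8:55162885-55271808) was at 0.148 FPKM in vehicle and at 0.169, 0.260, 0.242, 0.278 and 0.621 FPKM on days 1, 2, 3, 6 and 12. Every CPA value was above the vehicle value, and day 12 stood apart from the rest. The log2 differences from vehicle were 0.12, 0.54, 0.46, 0.61 and 1.54. At this low level the added 0.1 makes them smaller than the FPKM ratios would give, and neither scale is certain there. The ratio of VEGFA to VEGFC FPKM was 17.9 on day 12, against 70.4 in vehicle.

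ANGPT2 (mm9 chr8:18690262-18741562) was at 2.06 FPKM in vehicle and at 2.31, 2.04, 2.85, 3.43 and 3.19 FPKM on days 1, 2, 3, 6 and 12. It was highest on day 6, at a log2 difference of 0.71, and did not pass 2-fold on any day. Relative to its receptor TEK, ANGPT2 stood at 3.77 on day 12, against 7.36 in vehicle, and between 7.21 and 10.6 on the days before.

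KDR, the main signaling receptor of VEGFA (mm9 chr5:76329298-76374453), had its lowest value on day 2. It was at 1.22 FPKM in vehicle and at 1.01, 0.748, 0.998, 1.54 and 1.79 FPKM on days 1, 2, 3, 6 and 12. Days 1 to 3 were below vehicle and days 6 and 12 above it. The log2 difference of -0.64 on day 2 was the lowest of any of the 10 genes on any day, and 1.83% of genes with a mean of 1 FPKM or more lay below it. On day 12 the difference was 0.52, under 2-fold.

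FLT1 (mm9 chr5:148373771-148537564) was at 0.789 FPKM in vehicle and at 0.752, 0.745, 0.624, 0.822 and 1.74 FPKM on days 1, 2, 3, 6 and 12. Days 1 to 6 lay between 0.624 and 0.822 FPKM, and day 12 alone stood above them. The day 12 difference of 1.05 was just past 2-fold. The row does not separate the membrane and soluble forms, so their shares are not known. FLT1 reached 0.969 times the FPKM of KDR on day 12, against 0.647 in vehicle, and it had been at 0.996 times KDR on day 2, when KDR was lowest.

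FLT4 (mm9 chr11:49423180-49466241) was the flattest of the receptors. It was at 0.223 FPKM in vehicle and at 0.251, 0.234, 0.216, 0.258 and 0.203 FPKM on days 1, 2, 3, 6 and 12, so its highest value was 1.27 times its lowest. VEGFC, a ligand of FLT4, was 4.20 times vehicle on day 12, while FLT4 was 0.914 times vehicle. Of 6 lymphatic endothelial markers, 2 were at a mean of 1 FPKM or more, with Lyve1 (a hyaluronan receptor) at 1.56 FPKM on day 12 and 1.1 FPKM in vehicle and Pdpn (podoplanin, also made by fibroblasts) at 8.86 and 1.35 FPKM. The defining lymphatic factor Prox1 was listed at 0 in 5 of the 6 groups and at 0.0132 FPKM on day 12, and the chemokine Ccl21a was listed at 0 in 5 groups.

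TEK (mm9 chr4:94405979-94541667) was at 0.279 FPKM in vehicle and at 0.283, 0.193, 0.395, 0.374 and 0.845 FPKM on days 1, 2, 3, 6 and 12. It was lowest on day 2, as KDR, VEGFA, ANGPT2, PECAM1 and THBS1 were, and highest on day 12, at a log2 difference of 1.32. The related receptor Tie1 was at 5.0 FPKM on day 12, against 2.08 FPKM in vehicle (log2 difference 1.23). It was the only 1 of 5 other angiopoietin and Tie genes with a mean of 1 FPKM or more. The ligand Angpt1, which activates TEK and is made by mural cells, was at 0.439 FPKM on day 12 and 0.0155 FPKM in vehicle.

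PECAM1 and CDH5 had their highest values on day 6. PECAM1 (mm9 chr11:106515531-106576595), also present on platelets and white blood cells, was at 6.14 FPKM in vehicle and at 7.16, 5.80, 7.92, 11.3 and 11.0 FPKM on days 1, 2, 3, 6 and 12. CDH5 (mm9 chr8:106625524-106668402), which is more restricted to endothelium, was at 3.32 FPKM in vehicle and at 3.44, 3.38, 4.37, 5.36 and 4.86 FPKM on the same days. Days 3, 6 and 12 were above vehicle for both, by log2 differences of 0.36, 0.87 and 0.83 for PECAM1 and 0.39, 0.68 and 0.54 for CDH5. Neither passed 2-fold, but PECAM1 did so on day 12 (log2 difference 1.09) once values were recentred on the median gene, which lay at -0.26 on that day.

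THBS1 (mm9 chr2:117937657-117952869) had the widest course. It was at 3.50 FPKM in vehicle and at 2.96, 2.46, 3.31, 6.97 and 22.3 FPKM on days 1, 2, 3, 6 and 12. Days 1 to 3 were below vehicle, and days 6 and 12 above it. The log2 differences were -0.24, -0.49, -0.08, 0.97 and 2.64, so that day 6 lay just under 2-fold and day 12 past it. On day 12 it was above 97.2% of the genes with a mean of 1 FPKM or more. THBS1 was at 2.01 times the FPKM of VEGFA on day 12, against 0.336 times in vehicle.

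Counted together, none of the 10 genes was past 2-fold on days 1, 2, 3 or 6 in either direction. Among all genes with a mean of 1 FPKM or more, 0.225% were past 2-fold higher and 0.244% lower on day 1, 0.648% and 0.498% on day 2, and 1.33% and 0.573% on day 3. A count of 0 among 10 genes is near these shares. On day 6 the shares were 6.32% higher and 0.46% lower. On day 6, 9 of the 10 genes were above vehicle, at a median log2 difference of 0.47, and VEGFA was the exception. Over all genes with a mean of 1 FPKM or more 56.2% were above vehicle on that day, at a median of 0.04. Over those with a mean of 0.2 to under 1 FPKM, the class of 4 of the members, 74.1% were, at a median of 0.32.

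On day 12, 4 of the 10 genes were past 2-fold higher and none lower. Among all genes with a mean of 1 FPKM or more the shares were 11.6% higher and 9.67% lower, but only THBS1 of the 4 belongs to that class. VEGFC, FLT1 and TEK have means under 1 FPKM, and among the 2476 genes with a mean of 0.2 to under 1 FPKM, 39.1% were past 2-fold higher and 9.09% lower. Among genes chosen by 0.1 to under 1 FPKM in vehicle, a class that day 12 does not decide, the shares were 37.4% and 8.65%. The differences of VEGFC, FLT1 and TEK were above those of 71.5%, 62.0% and 67.0% of the genes with a mean of 0.2 to under 1 FPKM, so they did not stand far from others of their level. The median of the 10 genes was 0.72, with 9 above vehicle and FLT4 below it. The median was -0.26 over genes with a mean of 1 FPKM or more and 0.57 over the lower class. With 1 FPKM added in place of 0.1, only THBS1 remained past 2-fold, at differences of 0.50, 0.61 and 0.53 for VEGFC, FLT1 and TEK.

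**Figure D2:**
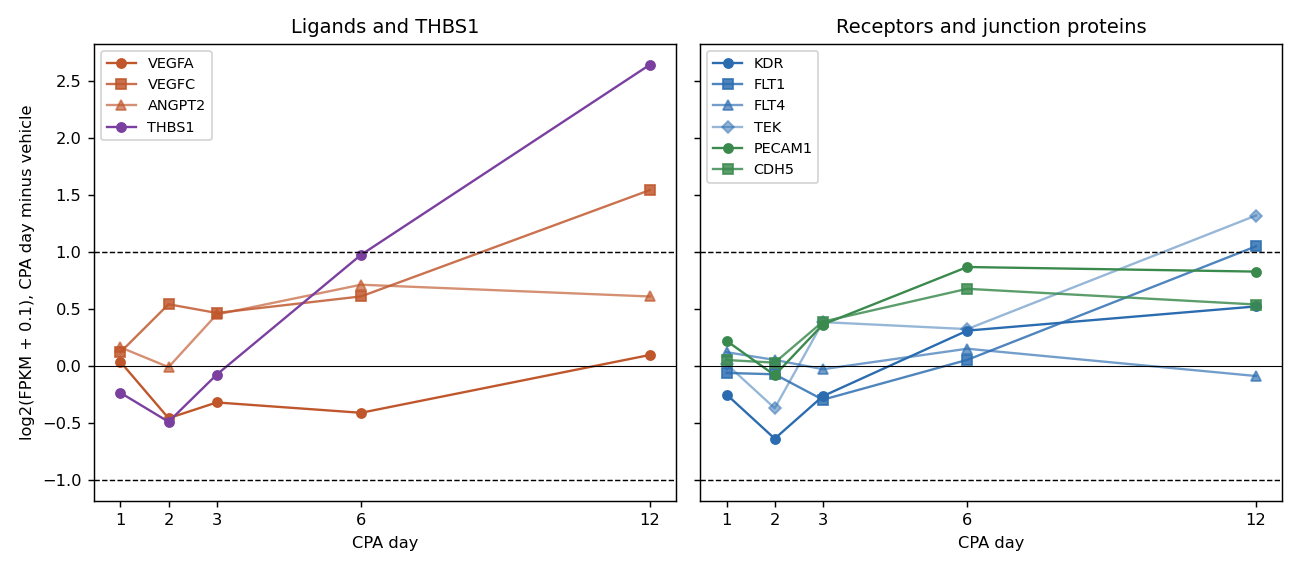
Difference from vehicle in log2(FPKM + 0.1) on CPA days 1, 2, 3, 6 and 12 for the ligands and THBS1 (left) and for the receptors and junction proteins (right), each point 1 difference of group values, with dashed lines at 2-fold. No point lies outside the lines before day 12, when THBS1 (2.64), VEGFC (1.54), TEK (1.32) and FLT1 (1.05) lie above the upper line.

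Day 12 was also set against day 6, the end of the first cycle, a contrast the deposited comparisons do not hold. THBS1 was past 2-fold higher, at 22.3 FPKM on day 12 against 6.97 FPKM on day 6 (log2 difference 1.67). FLT1, TEK and VEGFC lay at 0.995, 0.995 and 0.93, just under 2-fold on this scale, though their FPKM ratios were 2.11, 2.26 and 2.23. All 3 passed with 0.01 FPKM added or after recentring or upper-quartile scaling. VEGFA differed by 0.51 and KDR by 0.21, and ANGPT2, PECAM1, CDH5 and FLT4 lay between -0.24 and -0.04. Among all genes with a mean of 1 FPKM or more, 6.33% were past 2-fold higher and 8.95% lower between these days, and in the class of 0.2 to under 1 FPKM 23.1% and 9.98%. By the values as deposited, THBS1, FLT1, TEK, VEGFC and, by less, VEGFA and KDR were above their day 6 level on day 12. ANGPT2, PECAM1, CDH5 and FLT4 were at their highest on day 6. The median of all genes with a mean of 1 FPKM or more lay at -0.29 between these days. ANGPT2, PECAM1 and CDH5 lay above 61.8%, 65.6% and 59.8% of those genes, so this division depends on the scaling. The comparisons with vehicle share the same 2 vehicle libraries.

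The order of the levels changed at its top and bottom. On day 12 THBS1 came first, followed by VEGFA, PECAM1, CDH5, ANGPT2, KDR, FLT1, TEK, VEGFC and FLT4. In vehicle the order was VEGFA, PECAM1, THBS1, CDH5, ANGPT2, KDR, FLT1, TEK, FLT4 and VEGFC. Neighbors such as VEGFA and PECAM1 on day 12 (11.1 and 11.0 FPKM) or KDR and FLT1 (1.79 and 1.74 FPKM) were close, and with no spread between libraries their order cannot be tested.

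Relative to CDH5 the receptors differed among themselves. ANGPT2 kept nearly the same ratio to CDH5, between 0.603 and 0.673 in all 6 groups, and PECAM1 one between 1.71 and 2.26. KDR was at 0.368 times CDH5 in vehicle, at 0.293, 0.221, 0.228 and 0.287 on days 1, 2, 3 and 6, and at 0.369 on day 12. FLT1 was at 0.358 times CDH5 on day 12, against 0.238 in vehicle, and TEK at 0.174 against 0.0842. FLT4 was at 0.0418 times CDH5 on day 12, against 0.0671 in vehicle. VEGFA was at 2.29 times CDH5 on day 12 and 3.14 times in vehicle, with its lowest ratio, 1.46, on day 6. These are ratios of 2 group values and cover no sampling error.

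**Figure D3:**
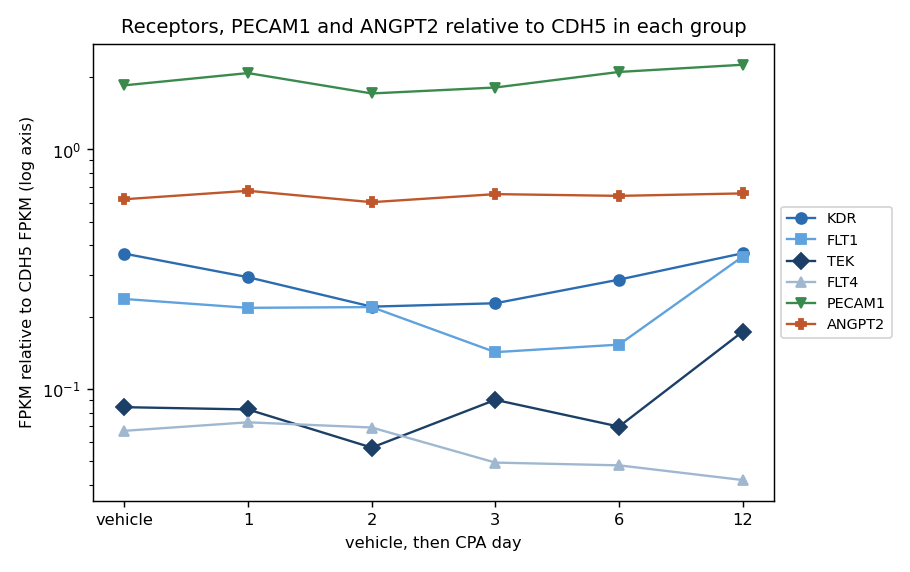
FPKM of KDR, FLT1, TEK, FLT4, PECAM1 and ANGPT2 divided by the FPKM of CDH5 in vehicle and on CPA days 1, 2, 3, 6 and 12 (log axis, 1 value per group, days not spaced to scale). ANGPT2 is nearly level at 0.603 to 0.673, KDR is lowest at 0.221 on day 2, and TEK is at 0.174 on day 12 against 0.0842 in vehicle.

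Other genes of the same pathways were counted from lists, over the members with a mean of 1 FPKM or more unless a vehicle level is named. Over all genes with that mean, 11.6% were past 2-fold higher and 9.67% lower on day 12, and 6.32% and 0.46% on day 6. Of 5 such VEGF ligands, receptors and coreceptors (of 8 listed), 1 was past 2-fold higher and 1 lower on day 12. The coreceptor Nrp1 was at 12.8 FPKM on day 12, against 1.74 FPKM in vehicle (log2 difference 2.80), and the coreceptor Nrp2 at 8.64 FPKM against 18.5 FPKM (-1.09). Vegfb, a ligand of FLT1, was at 9.60 FPKM on day 12 and 16.1 FPKM in vehicle, and Pgf, another, at 9.34 and 4.90 FPKM. Nrp1 was already at 4.81 FPKM on day 6 (1.42), when none of the other 4 was past 2-fold. The coreceptors of the VEGF receptors thus lay on opposite sides of vehicle on day 12. Of the listed genes with lower means, the ligand Figf was at 1.47 FPKM on day 12, against 0.627 FPKM in vehicle (1.11). Sema3c (2.58) was also past 2-fold higher, and Sema3a (0.49) was not. In the class of 0.2 to under 1 FPKM, that of Figf and Sema3c, 39.1% of genes were past 2-fold higher.

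Of 8 other angiogenic growth factors and receptors at 1 FPKM or more in vehicle, 3 were past 2-fold higher and 1 lower on day 12, at a median of -0.12. Over all 10281 genes at 1 FPKM or more in vehicle, the shares were 8.47% higher and 10.3% lower. The chemokine receptor Cxcr4 was at 15.8 FPKM on day 12, against 4.10 FPKM in vehicle, and Fgfr1, a receptor for fibroblast growth factors, at 15.6 FPKM against 41.0 FPKM. Pdgfa, a growth factor for mesenchymal cells, was at 42.5 FPKM on day 12 and 43.2 FPKM in vehicle, and the receptor Met at 5.81 and 11.6 FPKM. Of 8 Notch pathway genes listed, 5 had a mean of 1 FPKM or more, and none of these 5 was past 2-fold on any day. Over all genes with that mean, 11.6% were past 2-fold higher and 9.67% lower on day 12. Among the 5, the endothelial Notch receptor Notch4 was at 3.08 FPKM on day 12 and 3.04 FPKM in vehicle. The Notch target Hes1 was at 12.3 and 18.0 FPKM. Of the listed genes with lower means, Hey1 was past 2-fold higher on day 12, at 1.18 FPKM against 0.227 FPKM in vehicle (1.97). Jag2 (0.22) and Hey2 (0.67) were not. In the class of 0.2 to under 1 FPKM, that of Hey1, 39.1% of genes were past 2-fold higher.

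Of 4 other thrombospondins and their receptors, 2 were past 2-fold higher on day 12, beside 11.6% of all genes, at a median of 1.20. Cd36, a THBS1 receptor that is also abundant in fat cells and macrophages, was at 43.0 FPKM on day 12, against 2.21 FPKM in vehicle (4.22), and Thbs2 at 5.0 FPKM against 1.29 FPKM (1.87). Thbs3 was at 2.33 and 2.14 FPKM and the receptor Cd47 at 38.0 and 26.2 FPKM. Of 6 other inhibitors of vessel growth at 1 FPKM or more in vehicle, 2 were past 2-fold higher and 1 lower on day 12. The shares over all genes at that vehicle level were 8.47% and 10.3%. Col18a1, whose collagen chain holds endostatin, was at 13.2 FPKM on day 12 and 36.9 FPKM in vehicle (-1.48). Pf4, a platelet chemokine also made by macrophages, was at 240.96 FPKM on day 12 and 16.7 FPKM in vehicle (3.85), the matrix protein Sparc at 256.1 and 168.1 FPKM, and Serpinf1 (pigment epithelium-derived factor) at 36.1 and 36.4 FPKM. Inhibitors thus differed in direction, and THBS1 was not followed by all of them.

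VEGFA is a target of hypoxia-inducible factors, and 16 other genes induced by hypoxia were counted beside it. Their median lay at -0.10, -0.19, -0.26, -0.37 and -0.56 on days 1, 2, 3, 6 and 12, with 0 past 2-fold on days 1 to 6 and 1 higher and 1 lower on day 12. Over all genes with a mean of 1 FPKM or more the day 12 median was -0.26. Of those genes 11.6% were past 2-fold higher and 9.67% lower. On days 2, 3 and 6 the list and VEGFA were both below vehicle. On day 12 VEGFA was at 1.07 times vehicle, while the glucose transporter Slc2a1 was at 33.5 FPKM against 53.5 FPKM in vehicle, and the glycolysis enzymes Pgk1 and Ldha were at 212.1 and 343 FPKM against 360.4 and 470.8 FPKM. Ndrg1 was at 36.0 FPKM on day 12, against 70.4 FPKM in vehicle. Of the 16 genes, 3 were above vehicle on day 12. Pfkfb3 was at 8.03 FPKM against 3.05 FPKM, Bnip3 at 46.2 against 34.9 FPKM and Ankrd37 at 5.39 against 4.73 FPKM.

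Of 17 other endothelial markers with a mean of 1 FPKM or more (of 20 listed), 10 were past 2-fold higher on day 12 and none lower, at a median of 1.09, beside the background of 11.6% given above. Of the 15 that were at 1 FPKM or more in vehicle, 8 were past 2-fold higher, beside 8.47% of all genes at that level, at a median of 1.00. On days 1, 2, 3 and 6 the medians of the 17 were 0.01, 0.06, 0.39 and 0.43. On day 6, 1 of the 17 was past 2-fold higher, near the share of 6.32% over all genes. None of the 15 was past 2-fold on day 6. The 20 listed genes summed to 96.4 FPKM in vehicle and 95.1, 109.9, 127.7, 117.6 and 157 FPKM on days 1, 2, 3, 6 and 12, and none of them was listed at 0. Plvap, a protein of fenestrated vessels, was at 16.2 FPKM on day 12, against 7.57 FPKM in vehicle. The secreted endothelial protein Egfl7 was at 24.6 and 21.98 FPKM, the endothelial surface protein Ecscr at 10.3 and 8.58 FPKM, and the TGF-beta coreceptor Eng at 10.7 and 14.7 FPKM. On day 12 KDR (0.52), CDH5 (0.54) and PECAM1 (0.83) lay under the list's median of 1.09 and TEK (1.32) above it.

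Markers of other cell types moved on the same days, and their part in the values of the 10 genes was not tested. Over all genes with a mean of 1 FPKM or more, 6.32% were past 2-fold higher on day 6 and 11.6% on day 12. Over all genes at 1 FPKM or more in vehicle, 8.47% were on day 12. The 12 mural markers (pericyte and smooth muscle genes) summed to 80.5 FPKM on day 12 against 27.2 FPKM in vehicle. Of the 6 with a mean of 1 FPKM or more, 4 were past 2-fold higher, among them Tagln, Mcam and Acta2 but not Pdgfrb. Of 11 macrophage markers, 10 were past 2-fold higher on day 6 and 11 on day 12, with a list sum of 418.4 FPKM in vehicle, 1307 FPKM on day 6 and 2550 FPKM on day 12. All 9 adipocyte markers at 1 FPKM or more in vehicle were past 2-fold higher on day 12, with a sum over the 13 listed of 103.7 FPKM in vehicle, 164 FPKM on day 6 and 6035 FPKM on day 12. The 10 platelet genes summed to 253.1 FPKM on day 12 and 17.6 FPKM in vehicle, of which Pf4 was 240.96 and 16.7 FPKM. Of the others, Ppbp was at 7.61 FPKM on day 12 and 0.164 FPKM in vehicle, Clec1b at 2.68 and 0.0471 FPKM, Itga2b at 1.04 and 0.541 FPKM, Treml1 at 0.396 and 0.0354 FPKM and Gp1bb at 0.234 and 0.0375 FPKM. Gp1ba, Gp9 and Gp5 did not exceed 0.129 FPKM in any group, and Gp6 was listed at 0 in 5 groups.

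Counted among markers at 1 FPKM or more in vehicle, 6 of 8 fibroblast (with 1 lower), 3 of 3 neutrophil, 3 of 3 T cell, 3 of 3 erythroid and 2 of 5 skeletal muscle markers were past 2-fold higher on day 12. The shares over all genes at that vehicle level were 8.47% higher and 10.3% lower. The 2 skeletal muscle markers were Ckm (1.06, just past 2-fold) and Des (2.30). Des is also in the mural list and was counted there too, so it does not speak for muscle alone. Of the mammary epithelial markers, Krt8 was at 82.2 FPKM on day 12 and 125 FPKM in vehicle. Krt18, Krt19 and Epcam were at 26.9, 77.0 and 6.30 FPKM on day 12, against 0.518, 0.952 and 0.189 FPKM in vehicle. The milk protein genes Wap and Csn2 were listed at 0 in every group. Of 10 housekeeping genes 1 was past 2-fold lower on day 12, beside 9.67% of all genes with a mean of 1 FPKM or more. Their list median was -0.48 on that day, and none was past 2-fold on day 6.

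**Figure D4:**
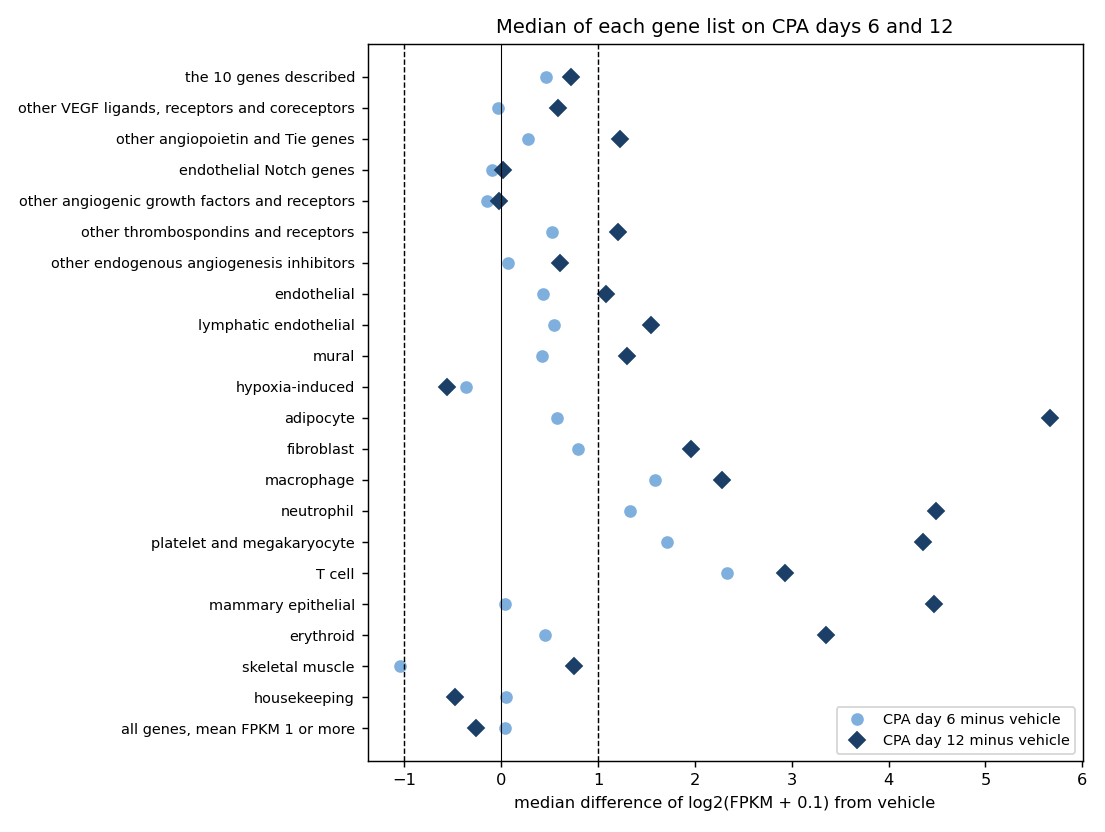
Median difference from vehicle in log2(FPKM + 0.1) on CPA day 6 (circles) and CPA day 12 (diamonds) for the 10 genes, for each gene list (members with a mean of 1 FPKM or more) and for all such genes, with dashed lines at 2-fold and no error bars because each group has 1 value. Some members, among them 4 of 5 mammary epithelial and 3 of 6 neutrophil genes, reach that mean only through day 12, which raises their list's median. On day 12 the 10 genes lie at 0.72 and the endothelial list at 1.09, while the adipocyte list lies at 5.67 and the hypoxia-induced list at -0.56.

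Genes whose course over the 6 groups was most like that of VEGFA, KDR and THBS1 were found by Pearson's r of log2(FPKM + 0.1), a description over 6 points that share their libraries. They were sought among up to 3378 genes that had a mean of 1 FPKM or more and spanned at least 1 log2 unit. For VEGFA these were Mest (r = 0.963), Scarna17 (0.935) and Elovl6 (0.92), a fatty acid elongase, and 1 gene exceeded 0.95. For KDR they were the immediate early gene Fos (0.998), Rgs1 (0.993), a regulator of G protein signaling in leukocytes, and BC029722 (0.987), and 30 genes exceeded 0.95. Fos was at 1.87 FPKM on day 2, its lowest value, as KDR was lowest on that day, and at 9.17 FPKM on day 12. For THBS1 they were Cryl1 (0.999), the myeloid receptor gene Trem2 (0.998) and Pglyrp1 (0.998), a neutrophil granule protein, and 510 genes exceeded 0.95. Trem2 was at 8.60 FPKM in vehicle, 19.7 FPKM on day 6 and 102.1 FPKM on day 12. VEGFA itself spanned 0.55 log2 units, less than the genes searched, so its count cannot be set beside that of THBS1, which spanned 3.13.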

How the data were processed

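RNA of E0771 tumors was sequenced from 12 libraries in 6 groups. Per the submitters' processing notes, TopHat2, featureCounts and edgeR were used with the mm9 build. Their versions are not given in the sources used here. For each gene and group the authors deposited 1 FPKM value, made from both libraries. The same table holds the authors' comparisons of each CPA day with vehicle (ratios, fold changes and adjusted p-values), which were not used. No values per library were used, so no interval or test is given.

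Groups came from the sample titles. Differences are of log2(FPKM + 0.1), CPA day minus vehicle or day 12 minus day 6, for 6 comparisons, and a gene was counted when past 2-fold. The shares over all genes were taken at a mean of 1 FPKM or more over the 6 groups, and also, added once the data had been seen, at 0.2 to under 1 FPKM and at 0.1 to under 1 FPKM in vehicle. Some list genes reach a mean of 1 FPKM only through day 12, so counts among genes at 1 FPKM or more in vehicle were added, with the share over all genes at that level. The members and the 20 gene lists were chosen with earlier results of these data known. Named genes were the 10 members, up to 4 genes per list with the highest mean FPKM, and the 3 genes most like VEGFA, KDR and THBS1 (predicted genes left out). Others (Angpt1, Prox1, Ccl21a, Wap, Csn2, Pfkfb3, Bnip3, Ankrd37, Hey1, Hey2, Jag2, Figf, Sema3a, Sema3c and 8 platelet genes) were chosen after their values were seen. Trac and Epb42 were not matched. Counting and depth steps were tested on simulated data. Alternatives were a pseudocount of 1 or 0.01 FPKM, no filter, 1 FPKM or more in vehicle or day 6, recentring on the median gene, upper-quartile scaling and a 1.5-fold threshold. Promoters are from RefSeq (GRCm38.p6), as no mm9 genome was used here. The software was Python 3.11.15 with numpy 2.4.6, matplotlib 3.10.9 and pandas 2.3.3.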

Additional observations from a re-analysis of the deposited data

How the results depend on the processing

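The count of 4 members past 2-fold higher on day 12 against vehicle was 1 (THBS1) with a pseudocount of 1 FPKM. Against day 6 the count of 1 on day 12 was 4 (VEGFC, FLT1, TEK and THBS1) with a pseudocount of 0.01 FPKM, after recentring on the median gene, after upper-quartile scaling and with a 1.5-fold threshold. The 1.5-fold threshold gave 5 higher on day 6 (VEGFC, ANGPT2, PECAM1, CDH5 and THBS1) and 1 lower on day 2 (KDR), each against 0 past 2-fold. The other 53 of 60 counts of members differed from the count reported by no more than 1.5 times. No member past 2-fold changed direction in 300 repeats of its differences, and 24 of these changed sides of the threshold in use (21 passed it and 3, VEGFC, FLT1 and TEK on day 12 with a pseudocount of 1 FPKM, no longer did). Of 840 repeats of list medians, 2 reversed: the mammary epithelial median on day 12 was -0.60 against vehicle and -0.20 against day 6 among genes of 1 FPKM or more in vehicle or on day 6, which leaves out the 4 genes that reach a mean of 1 FPKM only through day 12. Another 31 medians crossed the threshold. Of 90 repeats of the shares over all genes, 35 moved by over 1.5 times. Leaving out each library was not run, because there is 1 value per group. No paired analysis was possible because the table holds 1 pooled value per group. Depth limits the low genes most: VEGFC, FLT4 and TEK were under 1 FPKM in every group, and 1 of the 2 day 12 libraries was shallower by 1.91 times, with no value per library to show its part in the day 12 differences.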
